A study of Danio rerio with 6 samples.

Results

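Wnt ligands, their receptors, antagonists, intracellular transducers and canonical targets were examined in heart-reporter cells sorted from whole zebrafish embryos after knockdown of Gata4. The genes were chosen by name: 40 zebrafish names were looked up in the deposited gene table, ignoring case and, where a name was absent, dropping its final a or b. Of these names, 31 reached a gene of the table and 9 did not, which gave 34 genes of 27456 in all. The names covered 5 roles, with 5 canonical targets, 10 ligands, 10 antagonists, 5 receptors and 4 transducers among the 34 genes. The names axin2, sp5l, notum1a, rnf43, wnt5b, wnt11r, lrp6, lgr5 and axin1 reached no gene by name and were not analysed here under those names.

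The Gata4 morphant group held 3 libraries from tg(myl7::gfp) embryos injected with an antisense morpholino oligomer, 2 nl at 0.7 mM. The Wildtype group held 3 libraries from tg(myl7::gfp) embryos, and the labels do not say whether these embryos received a control oligomer. Both groups were collected at 24 hours post fertilization (hpf), and about 200 embryos were pooled for a sort. The promoter of myl7, which encodes a myosin light chain of heart muscle, drives the fluorescent reporter of the line. Each library was made from 100 ng of total RNA, with an mRNA-Seq kit for morphant replicate 1 and Wildtype replicates 1 and 2, and a TruSeq kit for morphant replicates 2 and 3 and Wildtype replicate 3. The labels do not state that the replicates are separate clutches of embryos. The p-values therefore reflect the spread among these 6 samples alone, which may be technical in origin. No gene of the table was matched by name to the targeted gene, gata4, which was not analysed here. The oligomer that defines the morphant group is shown because every comparison rests on it; it has 25 bases.
Gata4 morpholino: tccacaggtgagcgattattgcttc

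Wnt proteins are secreted, lipid-modified signals that bind Frizzled receptors and the co-receptors Lrp5 and Lrp6. In the canonical branch, this stabilises β-catenin, which enters the nucleus and activates genes with Tcf and Lef factors. Dkk, Sfrp and Wif proteins block the ligands or the co-receptors outside the cell, and Nkd proteins and Notum are induced by the pathway and restrain it. In vertebrate heart formation, Wnt signalling is known to act in phases, first promoting mesoderm and later restricting cardiac differentiation, while Wnt11 acts through a branch that does not need β-catenin.

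Libraries held 12574486, 37906530 and 16779626 counts in morphant replicates 1 to 3, and 15302189, 21119399 and 19009161 counts in Wildtype replicates 1 to 3. Morphant replicate 2 stood apart from the other morphant libraries: a chi-square over genes gave 366 per gene against morphant replicate 1 and 257 against morphant replicate 3, but 99.1 between morphant replicates 1 and 3, and 50.2 to 78.8 among Wildtype libraries. The chi-square rises with the number of counts, which was highest in morphant replicate 2. Results that rest on morphant replicate 2 are given with and without it. The reporter's own gene, MYL7, measured 385, 237 and 268 CPM (normalised counts, scaled by edgeR's trimmed mean of M values) in the morphant libraries, against 1004, 700 and 433 CPM in the Wildtype libraries. RNA of genes that mark leukocytes, skeletal muscle, neural cells and epidermis was also counted in every library. In such bulk RNA, fewer cells of a type and less RNA per cell cannot be told apart.

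No Wnt pathway member passed the main test, edgeR's quasi-likelihood test with a term for kit, at a Benjamini-Hochberg adjusted p of 0.05. Nor did any other gene of the 18033 tested, a share of 0%. Over the table, 2261 genes had an unadjusted p under 0.05, limma-voom called 0 and DESeq2 called 293. At an unadjusted p under 0.05, 5 of the 31 members that passed the filter on low counts were higher in morphants and 0 were lower, against 7.62% of all genes tested that were higher and 4.92% that were lower. The 5 were FZD10, NKD1, SP5, DVL3 and SFRP2. With DESeq2, 1 member (FZD10) was called at an adjusted p of 0.05, where 0.682% of all genes were called higher. With morphant replicate 2 left out, edgeR called 10 members higher and 0 lower, against 8.19% of all genes higher and 11.5% lower. With morphant replicate 1 or 3 left out instead, edgeR called 0 genes of the whole table, and so 0 members. The members' median log2 fold change was 0.53 without replicate 1 and 0.47 without replicate 3. Over all genes tested, those medians were 0.04 and -0.02.

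The members' fold changes lay mostly above 0. Fitted without a filter, so that all 34 genes had a value, 31 were positive and 3 negative, with a median log2 fold change of 0.92 (Gata4 morphant over Wildtype, as throughout), against a median of 0.13 over all 27456 genes, 55.1% of which were positive. Among the 31 members that passed the filter the median was also 0.92, against 0.07 over the 18033 genes tested, 53.5% of which were positive. Scaling by library totals alone moved the median of all genes to 0.46, with 70% positive, and that of the members to 1.34, with 30 of 31 positive. By role, the unfiltered medians were 1.30 for targets, 1.90 for ligands, 0.96 for antagonists, 0.69 for receptors and 0.53 for transducers.

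The libraries did not share this pattern equally. In morphant replicates 1 and 3, 29 of the 34 members lay above every Wildtype library, against 24.4% of all genes, and 0 lay below every Wildtype library, against 19.4%. In all 3 morphant libraries, 6 members lay above every Wildtype library (wnt2, 1 WNT8A gene, dkk1b, 1 SFRP1 gene, FZD10 and DVL3), against 6.97% of all genes, and 0 lay below them all, against 4.69%. In morphant replicates 1 and 2, 6 members lay above every Wildtype library, against 9.82% of all genes, and in morphant replicates 2 and 3 again 6, against 9.87%. The value of morphant replicate 2 was within that of the Wildtype libraries for 17 members, above it for 6 and below it for 11, against 57.4% of all genes within. The highest value belonged to morphant replicate 3 for 18 members, to morphant replicate 1 for 14, to morphant replicate 2 for 0 and to a Wildtype library for 2. Of the 18033 genes tested, the highest value was in morphant replicates 1 to 3 for 4952, 2715 and 3504, and in Wildtype for 6862. Of the same genes, morphant replicate 2 was above every Wildtype library for 4582 and below every Wildtype library for 4256.

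**Figure D1:**
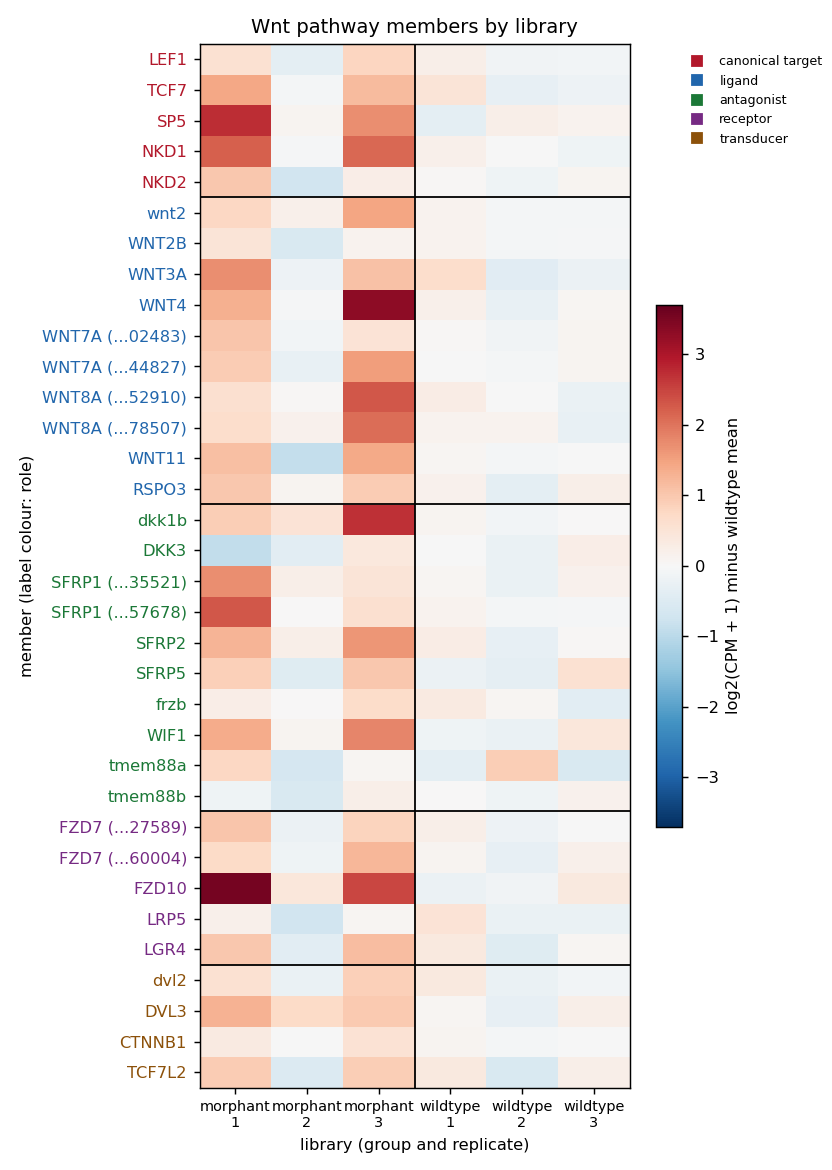
Level of each of the 34 members in each library, as log2(CPM + 1) minus the mean of the 3 Wildtype libraries, with members in rows grouped by role and libraries in columns. Morphant replicates 1 and 3 are mostly red (higher than Wildtype) and morphant replicate 2 is close to white for most members.

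Canonical targets are genes that β-catenin and its Tcf partners switch on, and they serve as a readout of the pathway in many tissues. Of 9 target names, 5 reached a gene. All 5 passed the filter and all 5 had a positive fold change, against 53.5% of all genes tested. At an unadjusted edgeR p under 0.05, 2 were higher, against 7.62% of all genes tested.

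SP5, listed as sp5a and encoding a zinc finger factor of the Sp family that acts downstream of Wnt in mesoderm patterning, measured 16.2, 1.81 and 7.66 CPM in morphant replicates 1 to 3, against 1.05, 2.06 and 1.86 CPM in Wildtype replicates 1 to 3 (ENSDARG00000076571). Morphant replicates 1 and 3 were high, and morphant replicate 2 lay among the Wildtype values, so the groups overlapped. The means were 8.56 ± 7.24 CPM in morphants and 1.66 ± 0.534 CPM in Wildtype (SD, n = 3 each). The log2 fold change of SP5 was 2.38 (SE 0.76) with edgeR's unadjusted p = 0.0164 and adjusted p = 0.393. DESeq2 gave SP5 an adjusted p of 0.0704, and without morphant replicate 2 edgeR gave a log2 fold change of 2.79 and an adjusted p of 0.0173. Without morphant replicate 1 the value was 1.26, and without morphant replicate 3 it was 2.04. The fold change of SP5 was 3.37 within the mRNA-Seq libraries and 1.34 within the TruSeq libraries.

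NKD1, which encodes Naked cuticle 1, a Dishevelled-binding feedback inhibitor, measured 18.4, 3.14 and 17.6 CPM in the morphant libraries, against 3.81, 3.17 and 2.76 CPM in the Wildtype libraries (ENSDARG00000020053). Morphant replicates 1 and 3 stood alike and far above the Wildtype libraries, while morphant replicate 2 lay inside the Wildtype range. The means of NKD1 were 13.0 ± 8.58 CPM in morphants and 3.24 ± 0.529 CPM in Wildtype. Its log2 fold change was 2.15 (SE 0.68; edgeR, unadjusted p = 0.0160, adjusted p = 0.393). It was 2.40 within the mRNA-Seq and 1.90 within the TruSeq libraries, and 2.48 without morphant replicate 2 (edgeR adjusted p = 0.0109). Without morphant replicate 1 it was 1.82, and without morphant replicate 3 it was 1.47.

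TCF7, a Tcf factor that is itself a Wnt target, measured 9.01, 2.53 and 7.24 CPM in the morphant libraries, against 4.13, 2.01 and 2.24 CPM in the Wildtype libraries (ENSDARG00000038672). Its morphant and Wildtype values overlapped through morphant replicate 2, and its log2 fold change was 1.34 (± 0.59 SE; adjusted p in edgeR, 0.393). LEF1, the Lef factor commonly used as a Wnt reporter gene, measured 18.6, 9.29 and 22.0 CPM in the morphant libraries, against 14.6, 11.2 and 11.4 CPM in the Wildtype libraries (ENSDARG00000031894). Morphant replicate 2 was the lowest of all 6 libraries for LEF1, and the means were 16.6 ± 6.59 CPM in morphants and 12.4 ± 1.87 CPM in Wildtype. The log2 fold change of LEF1 was 0.49 (SE 0.45, edgeR adjusted p = 0.567), smaller than those of SP5, NKD1 and TCF7. Leaving out morphant replicate 2 gave 1.57 for TCF7 (edgeR adjusted p = 0.0566) and 0.67 for LEF1 (edgeR adjusted p = 0.173). Neither TCF7 nor LEF1 was called in any alternative run.

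The name nkd2a reached the gene that the name table calls NKD2 (ENSDARG00000055271), and RefSeq gives nkd2a as a synonym of nkd2b, so which copy it is was not settled. It measured 3.48, 0.374 and 1.67 CPM in the morphant libraries, against 1.31, 1.00 and 1.41 CPM in the Wildtype libraries. Its log2 fold change was 0.57 (± 0.75 SE; adjusted p in edgeR, 0.687). It had opposite signs in the 2 kits, 1.59 in mRNA-Seq and -0.50 in TruSeq libraries, and was -0.57 without morphant replicate 1.

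**Figure D2:**
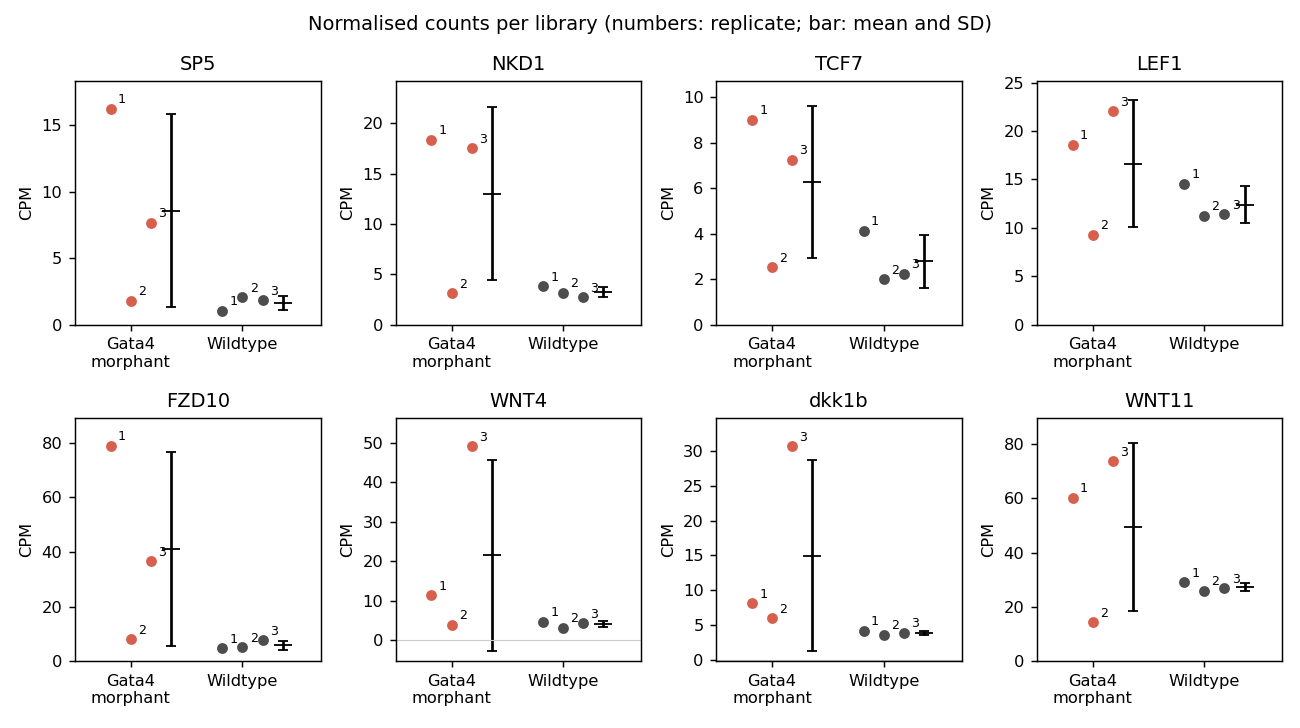
CPM of 8 members in every library, Gata4 morphant at left and Wildtype at right, with the replicate number beside each point and the mean and SD as a bar. Except for WNT11, morphant replicate 2 lies within or near the Wildtype points. It is below them for LEF1 and above all 3 for FZD10 and dkk1b. For WNT11 it is at 14.5 CPM, below Wildtype points of 26.1 to 29.1 CPM.

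Ligands of the family were measured as 10 genes, of which 8 passed the filter. All 8 had a positive fold change, against 53.5% of all genes tested. At an unadjusted edgeR p under 0.05, 0 were higher, against 7.62% of all genes tested. For 2 of the 10 every morphant library was above every Wildtype library, against 6.97% of all genes. WNT4, listed as wnt4a, a ligand with roles in kidney, gonad and neural development in vertebrates, measured 11.4, 3.91 and 49.1 CPM in the morphant libraries, against 4.72, 3.17 and 4.29 CPM in the Wildtype libraries (ENSDARG00000071208). Morphant replicate 3 alone set most of its mean, which was 21.5 ± 24.2 CPM in morphants and 4.06 ± 0.803 CPM in Wildtype. The log2 fold change of WNT4 was 2.08 (± 0.96 SE; adjusted p in edgeR, 0.394), and without morphant replicate 2 it was 2.38 (edgeR adjusted p = 0.0301). Without morphant replicate 3 it was 0.80, and without morphant replicate 1 it was 2.54.

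WNT3A, a canonical ligand of the tailbud and dorsal neural tube, measured 4.60, 0.489 and 2.55 CPM in the morphant libraries, against 1.64, 0.264 and 0.449 CPM in the Wildtype libraries (ENSDARG00000058822). Wildtype replicate 1 lay above morphant replicate 2, so the groups overlapped. Its log2 fold change was 2.03 (± 0.92 SE; adjusted p in edgeR, 0.393). The name wnt8a, a canonical ligand of the ventrolateral mesoderm of the gastrula, reached 2 genes. The WNT8A gene ENSDARG00000078507 measured 1.49, 0.777 and 5.58 CPM in the morphant libraries, against 0.722, 0.739 and 0.320 CPM in the Wildtype libraries. Its groups did not overlap, though morphant replicate 2 exceeded the highest Wildtype library by little, and its log2 fold change was 2.06 (± 1.04 SE; adjusted p in edgeR, 0.394). The other WNT8A gene, ENSDARG00000052910, measured 1.74, 0.863 and 7.82 CPM in the morphant libraries, against 1.18, 0.792 and 0.513 CPM in the Wildtype libraries. Morphant replicate 3 was the highest library for both, and their fold changes were 3.27 and 3.06 within the TruSeq libraries but 1.02 and 0.82 within the mRNA-Seq libraries. Reads shared between such near copies could have been split by the authors' counting.

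Wnt11 is known in heart development for its action on cell movement and polarity. The name wnt11 reached WNT11 (ENSDARG00000014796), and RefSeq lists wnt11r as an older name of wnt11 and wnt11 as an older name of wnt11f2, the gene mutated in silberblick. WNT11 measured 60.3, 14.5 and 73.7 CPM in the morphant libraries, against 29.1, 26.1 and 27.0 CPM in the Wildtype libraries. Morphant replicates 1 and 3 lay above all Wildtype libraries and morphant replicate 2 below them all. The means of WNT11 were 49.5 ± 31.1 CPM in morphants and 27.4 ± 1.56 CPM in Wildtype, with a log2 fold change of 0.92 (± 0.59 SE; adjusted p in edgeR, 0.449). Without morphant replicate 2 the log2 fold change of WNT11 was 1.23 (edgeR adjusted p = 0.0231), while without morphant replicate 1 it was 0.62 and without morphant replicate 3 it was 0.26. The separate gene wnt11f2 (ENSDARG00000004256), which was not among the 34, measured 7.58, 1.27 and 5.00 CPM in the morphant libraries, against 1.51, 2.06 and 2.11 CPM in the Wildtype libraries. Both wnt11 genes therefore showed morphant replicate 2 as the lowest library and morphant replicates 1 and 3 as the 2 highest.

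Wnt2 is a ligand of the lateral plate mesoderm, needed in zebrafish together with Wnt2bb for liver specification. The gene wnt2 (ENSDARG00000041117) did not pass the filter, with 22, 20 and 54 counts in the morphant libraries, against 8, 6 and 5 counts in the Wildtype libraries. Scaled, it measured 1.37, 0.575 and 2.81 CPM in the morphant libraries, against 0.525, 0.317 and 0.320 CPM in the Wildtype libraries. Every morphant library lay above every Wildtype library for wnt2, at these low counts. The other ligand that did not pass the filter was 1 of the 2 WNT7A genes (ENSDARG00000002483), with 20, 1 and 11 counts in morphants, against 2, 0 and 3 counts in Wildtype.

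RSPO3, which encodes R-spondin 3, a secreted amplifier of Wnt signals that binds Lgr receptors, measured 12.2, 6.04 and 11.6 CPM in the morphant libraries, against 6.30, 4.17 and 6.60 CPM in the Wildtype libraries (ENSDARG00000070081). Morphant replicate 2 lay inside the Wildtype range, and the log2 fold change was 0.82 (± 0.47 SE; adjusted p in edgeR, 0.417). Of the remaining ligands, the second WNT7A gene (ENSDARG00000044827) measured 14.5, 5.75 and 22.9 CPM in morphants, against 7.09, 6.71 and 7.69 CPM in Wildtype. Its log2 fold change was 0.99 (edgeR adjusted p = 0.420), and 1.26 without morphant replicate 2 (edgeR adjusted p = 0.0418). Without morphant replicate 1 it was 0.82, and without morphant replicate 3 it was 0.40. WNT2B, listed as wnt2bb, ranged from 1.41 to 3.98 CPM in morphants and from 2.38 to 2.89 CPM in Wildtype.

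Antagonists were measured as 10 genes, of which 9 passed the filter; 7 of the 9 had a positive fold change and 2 a negative one. Of all genes tested, 53.5% had a positive fold change. At an unadjusted edgeR p under 0.05, 1 antagonist was higher, against 7.62% of all genes tested. For 2 of the 10 every morphant library was above every Wildtype library, against 6.97% of all genes. The gene dkk1b, which encodes Dickkopf 1, a secreted blocker of Lrp5 and Lrp6 and itself induced by Wnt, measured 8.14, 5.98 and 30.7 CPM in the morphant libraries, against 4.20, 3.59 and 3.91 CPM in the Wildtype libraries (ENSDARG00000045219). All 3 morphant libraries were above all 3 Wildtype libraries, and morphant replicate 3 was far above the rest. The means of dkk1b were 14.9 ± 13.7 CPM in morphants and 3.90 ± 0.304 CPM in Wildtype, with a log2 fold change of 1.64 (± 0.74 SE; adjusted p in edgeR, 0.393). Its fold change was 1.06 within the mRNA-Seq libraries and 2.23 within the TruSeq libraries, and it was 0.81 without morphant replicate 3. Leaving out morphant replicate 2 gave 1.88 (edgeR adjusted p = 0.0517), and leaving out morphant replicate 1 gave 2.15. No alternative run called dkk1b.

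Secreted Frizzled-related proteins bind Wnts in place of the receptor. The name sfrp1a reached 2 SFRP1 genes. The first, ENSDARG00000035521, measured 29.4, 9.72 and 11.9 CPM in the morphant libraries, against 8.79, 6.87 and 9.35 CPM in the Wildtype libraries. The groups did not overlap, but morphant replicate 2 exceeded Wildtype replicate 3 by little, and morphant replicate 1 was the highest by far. The log2 fold change of this SFRP1 gene was 1.06 (± 0.47 SE; adjusted p in edgeR, 0.393), and it was 0.15 without morphant replicate 1. It was 1.91 within the mRNA-Seq libraries and 0.21 within the TruSeq libraries. The other SFRP1 gene, ENSDARG00000057678, did not pass the filter with all 6 libraries, with 81, 8 and 16 counts in morphants, against 5, 3 and 3 counts in Wildtype. Without morphant replicate 2 it passed, with a log2 fold change of 3.57 (edgeR adjusted p = 0.0240). It did not pass without morphant replicate 1 or morphant replicate 3.

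SFRP2 measured 12.5, 5.58 and 16.5 CPM in the morphant libraries, against 5.77, 3.54 and 4.81 CPM in the Wildtype libraries (ENSDARG00000070050). Only Wildtype replicate 1 lay above morphant replicate 2, and the means were 11.5 ± 5.51 CPM in morphants and 4.71 ± 1.12 CPM in Wildtype. The log2 fold change of SFRP2 was 1.31 (SE 0.54; edgeR, unadjusted p = 0.0467, adjusted p = 0.393), and 1.54 without morphant replicate 2 (edgeR adjusted p = 0.0380). Without morphant replicate 1 it was 1.12, and without morphant replicate 3 it was 0.87. WIF1, Wnt inhibitory factor 1, which binds secreted Wnts, measured 22.9, 9.06 and 31.8 CPM in the morphant libraries, against 7.28, 6.87 and 11.4 CPM in the Wildtype libraries (ENSDARG00000005541). Morphant replicate 2 lay below Wildtype replicate 3, so the groups overlapped. The log2 fold change of WIF1 was 1.27 (± 0.54 SE; adjusted p in edgeR, 0.393), and 1.57 without morphant replicate 2 (edgeR adjusted p = 0.0176). It was 0.76 without morphant replicate 1 and 0.82 without morphant replicate 3.

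The gene tmem88a encodes a membrane protein that inhibits Wnt signalling and is needed for early heart and blood development in zebrafish. It measured 36.4, 13.3 and 22.2 CPM in the morphant libraries, against 16.1, 40.2 and 14.0 CPM in the Wildtype libraries (ENSDARG00000056920). The groups overlapped, and Wildtype replicate 2 was the highest of the 6 libraries. The means of tmem88a were 24.0 ± 11.7 CPM in morphants and 23.4 ± 14.6 CPM in Wildtype, with a log2 fold change of 0.36 (± 0.46 SE; adjusted p in edgeR, 0.686). Its paralog tmem88b (ENSDARG00000069388) measured 42.9, 32.2 and 55.9 CPM in the morphant libraries, against 47.8, 42.7 and 53.2 CPM in the Wildtype libraries. Its log2 fold change was -0.17 (± 0.34 SE; adjusted p in edgeR, 0.794), and it turned positive, at 0.23, when libraries were scaled by totals alone.

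The other antagonists did not separate the groups. DKK3, a Dickkopf relative whose a or b copy was not settled from the name, was the other member with a negative fold change, -0.63 (SE 0.52), and measured 2.24 to 7.04 CPM in morphants and 4.17 to 6.28 CPM in Wildtype. SFRP5 measured 11.2 to 32.3 CPM in morphants and 12.1 to 23.5 CPM in Wildtype. The gene frzb, a Frizzled-related protein first known from cartilage, measured 0.777 to 1.77 CPM in morphants and 0.320 to 1.18 CPM in Wildtype.

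Receptors were measured as 5 genes, all of which passed the filter. All 5 had a positive fold change, against 53.5% of all genes tested. At an unadjusted edgeR p under 0.05, 1 was higher, against 7.62% of all genes tested. FZD10, a Frizzled of the neural tube and tailbud, measured 78.9, 8.14 and 36.6 CPM in the morphant libraries, against 4.86, 5.18 and 7.69 CPM in the Wildtype libraries (ENSDARG00000068213). All morphant libraries were above all Wildtype libraries, but morphant replicate 2 was close to Wildtype replicate 3 while morphant replicates 1 and 3 were many times higher. The means of FZD10 were 41.2 ± 35.6 CPM in morphants and 5.91 ± 1.55 CPM in Wildtype. FZD10 had the largest fold change of the 31 members tested, at 2.76 (SE 0.75; edgeR, unadjusted p = 0.00782, adjusted p = 0.393). DESeq2 called FZD10 higher, with a log2 fold change of 2.70 and an adjusted p of 0.0324. Without morphant replicate 2 the log2 fold change of FZD10 was 3.24 (edgeR adjusted p = 0.0103), while without morphant replicate 1 it was 1.46. It was 3.97 within the mRNA-Seq libraries and 1.54 within the TruSeq libraries, and the test of that difference gave an edgeR unadjusted p of 0.0756.

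The names fzd7a and fzd7b both reached the same pair of FZD7 genes, so which is which was not settled. Fzd7 is a receptor for Wnt11 and for canonical ligands in early embryos. The FZD7 gene ENSDARG00000060004 measured 222, 121 and 317 CPM in the morphant libraries, against 146, 111 and 154 CPM in the Wildtype libraries. The FZD7 gene ENSDARG00000027589 measured 67.4, 28.3 and 58.9 CPM in the morphant libraries, against 37.9, 28.5 and 32.5 CPM in the Wildtype libraries. In each, morphant replicates 1 and 3 were above the Wildtype libraries and morphant replicate 2 was not. Their log2 fold changes were 0.65 (SE 0.43, edgeR adjusted p = 0.459) and 0.72 (SE 0.39, edgeR adjusted p = 0.409). Leaving out morphant replicate 2 gave 0.86 (edgeR adjusted p = 0.0560) and 0.92 (edgeR adjusted p = 0.0515).

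LGR4, a receptor for R-spondins, measured 46.8, 17.1 and 50.9 CPM in the morphant libraries, against 29.6, 16.4 and 24.1 CPM in the Wildtype libraries (ENSDARG00000060542). Its log2 fold change was 0.76 (± 0.50 SE; adjusted p in edgeR, 0.455), and morphant replicate 2 lay inside the Wildtype range. LRP5, the co-receptor, measured 80.3, 42.9 and 74.6 CPM in the morphant libraries, against 99.9, 59.4 and 58.6 CPM in the Wildtype libraries (ENSDARG00000006921). Its groups overlapped, Wildtype replicate 1 was the highest library, and the log2 fold change was 0.01 (± 0.38 SE; adjusted p in edgeR, 0.994).

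Transducers carry the signal inside the cell. All 4 that reached a gene passed the filter with a positive fold change, against 53.5% of all genes tested. At an unadjusted edgeR p under 0.05, 1 was higher, against 7.62% of all genes tested. DVL3, listed as dvl3a with its copy not settled, encodes a Dishevelled, the protein that links Frizzled to both branches of the pathway. DVL3 measured 41.4, 27.6 and 33.2 CPM in the morphant libraries, against 17.4, 13.1 and 19.2 CPM in the Wildtype libraries (ENSDARG00000015707). All morphant libraries lay clear of all Wildtype libraries, morphant replicate 2 included. The means of DVL3 were 34.1 ± 6.96 CPM in morphants and 16.6 ± 3.14 CPM in Wildtype. Its log2 fold change was 1.05 (SE 0.35; edgeR, unadjusted p = 0.0192, adjusted p = 0.393), and DESeq2's adjusted p was 0.162. Without morphant replicate 2 the log2 fold change of DVL3 was 1.13 (edgeR adjusted p = 0.0443), while without morphant replicate 1 it was 0.60 and without morphant replicate 3 it was 1.00.

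CTNNB1, β-catenin, measured 867, 690 and 1001 CPM in the morphant libraries, against 738, 661 and 686 CPM in the Wildtype libraries (ENSDARG00000014571). Morphant replicate 2 lay inside the Wildtype range and the other 2 above it, with a log2 fold change of 0.31 (± 0.30 SE; adjusted p in edgeR, 0.594). The gene dvl2, another Dishevelled, measured 55.7, 31.2 and 68.5 CPM in the morphant libraries, against 47.5, 30.9 and 34.6 CPM in the Wildtype libraries, a log2 fold change of 0.52 (± 0.41 SE; adjusted p in edgeR, 0.519). TCF7L2, a Tcf partner of β-catenin, measured 13.7, 4.40 and 13.4 CPM in the morphant libraries, against 8.86, 4.17 and 7.88 CPM in the Wildtype libraries, a log2 fold change of 0.62 (± 0.58 SE; adjusted p in edgeR, 0.574). All 3 of these transducers had morphant replicate 2 inside the Wildtype range.

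**Figure D3:**
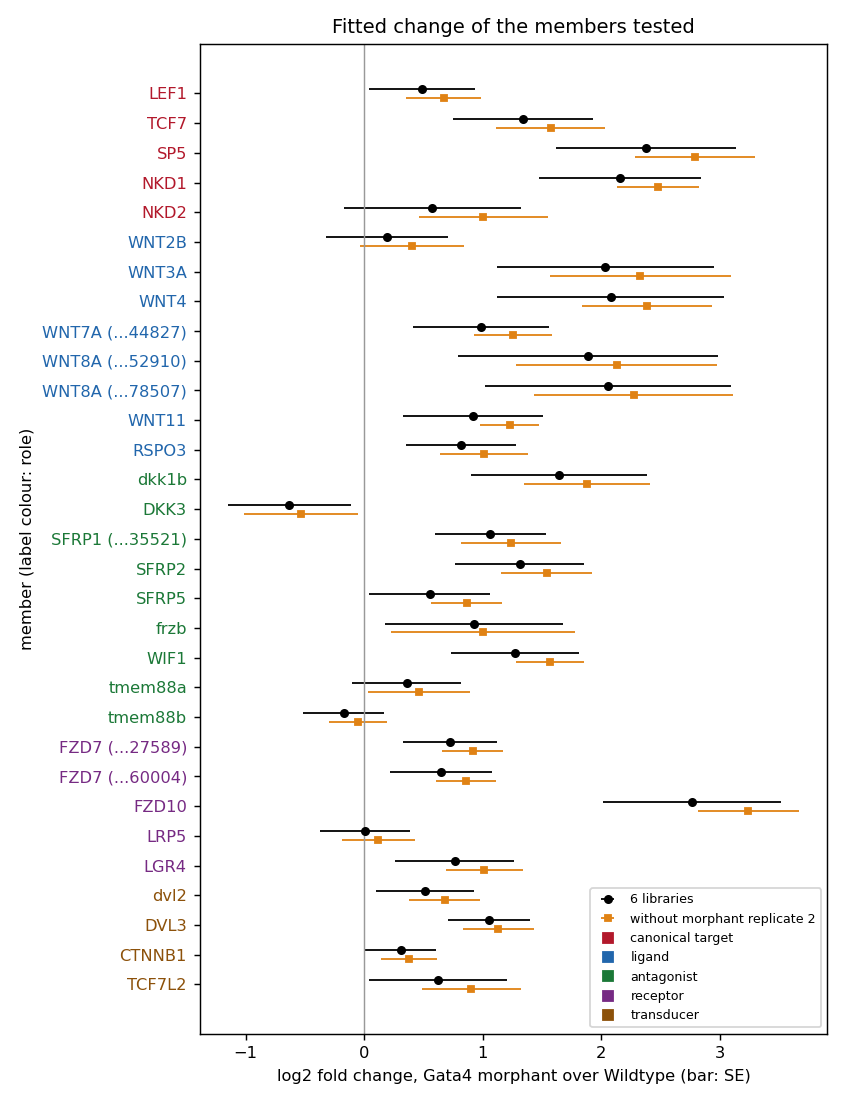
Fitted log2 fold change of each of the 31 members tested, Gata4 morphant over Wildtype, with its SE as a bar: black circles for all 6 libraries, orange squares without morphant replicate 2. Black circles lie above 0 for 29 members, FZD10 is farthest to the right at 2.76, and DKK3 is farthest to the left at -0.63.

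Levels of different members can be compared only per gene length, in the authors' RPKM (read counts divided by gene length and library depth). In Wildtype libraries 5 members averaged 10 RPKM or more, 23 averaged 1 RPKM or more and 11 averaged under 1 RPKM. CTNNB1 was the most abundant of the 34, at 161 RPKM in morphants and 130 ± 4.13 RPKM in Wildtype. The next in Wildtype order were the FZD7 gene ENSDARG00000060004, at 79.1 RPKM in morphants and 48.9 ± 7.95 RPKM in Wildtype, then tmem88b, at 13.1 RPKM in morphants and 14.2 ± 1.63 RPKM in Wildtype. WNT11 was the most abundant of the ligands, at 22.4 RPKM in morphants and 12.3 ± 0.390 RPKM in Wildtype. The lowest was the WNT8A gene ENSDARG00000052910, at 0.431 RPKM in morphants and 0.108 RPKM in Wildtype. In this order, the Wildtype libraries of neighbouring members kept apart at only 4 places, after CTNNB1, the first FZD7 gene, tmem88b and WNT4. SP5, TCF7, WNT3A and both WNT8A genes, whose fold changes were among the larger ones, were among the 11 members with under 1 RPKM in Wildtype.

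**Figure D4:**
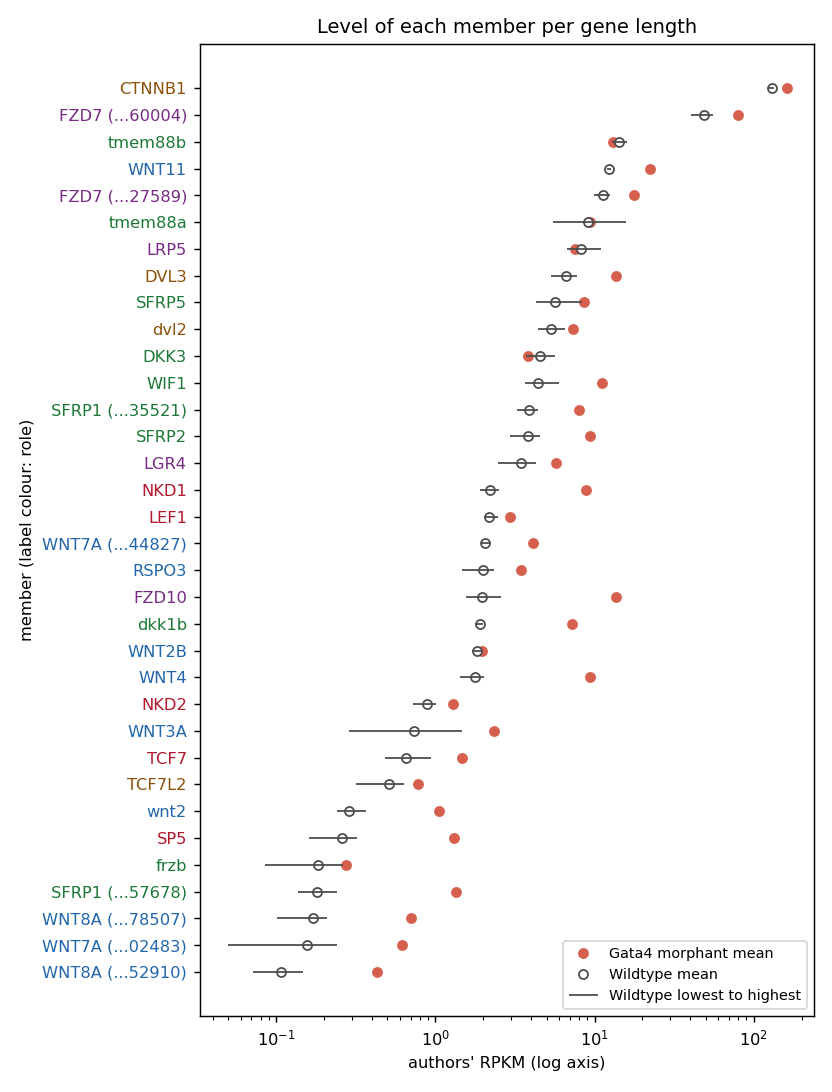
Mean level of each member per gene length in the authors' RPKM on a log axis, with filled circles for the Gata4 morphant mean, open circles for the Wildtype mean and lines from the lowest to the highest Wildtype library. Members are ordered by the Wildtype mean, from CTNNB1 at 130 RPKM to a WNT8A gene at 0.108 RPKM.

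The authors' deposited table gave its own adjusted p-values, from a test that the file does not name. In the authors' deposited table, 6 members had an adjusted p under 0.05, all with the higher mean in morphants, against 2.3% of all genes called higher and 0.262% called lower. In the authors' deposited table these were FZD10 (adjusted p = 9.21e-07), WNT4 (0.000428), SP5 (0.0154), the SFRP1 gene ENSDARG00000057678 (0.0194), dkk1b (0.0233) and NKD1 (0.0287). Of these 6, the SFRP1 gene did not pass the filter and was not tested in the main edgeR run or by DESeq2 here. Of the rest, FZD10 was the member also called by DESeq2, and none was called by edgeR with all 6 libraries.

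The remaining genes of the pathway were looked up from a list of 106 other names, of which 92 reached a gene, giving 86 genes that were not among the 34. Of these, 73 passed the filter, 61 had a positive fold change and 12 a negative one, and their median log2 fold change was 0.79. Over all genes tested, 53.5% had a positive fold change. None of the 73 was called by edgeR, which called 0% of all genes tested. At an unadjusted edgeR p under 0.05, 16 were higher and 1 was lower, against 7.62% of all genes tested that were higher and 4.92% that were lower. DESeq2 called 3 higher, where 0.682% of all genes were called higher. Other reported targets had 9 of 9 positive with a median of 1.73 and 7 at an unadjusted p under 0.05. Other ligands and secretion genes had 13 of 13 positive with a median of 1.65 and 6 at an unadjusted p under 0.05. Other receptors had 11 of 11 positive (median 0.83), other antagonists 6 of 6 (median 0.87) and planar polarity genes 13 of 16 (median 0.61). Other transducers were divided evenly, with 9 positive and 9 negative and a median of 0.07, the same as over all genes tested.

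The 3 other pathway genes with a positive fold change and the smallest unadjusted p were msgn1, cdx4 and WNT1. The gene msgn1, a factor of presomitic mesoderm, measured 16.2, 0.489 and 1.36 CPM in the morphant libraries, against 0.459, 0.951 and 0.192 CPM in the Wildtype libraries. Morphant replicate 1 alone set its mean, and its log2 fold change was 3.71 (± 0.78 SE; adjusted p in edgeR, 0.393). The gene cdx4, a caudal factor of the posterior body, measured 20.5, 1.64 and 9.22 CPM in the morphant libraries, against 2.56, 2.69 and 1.15 CPM in the Wildtype libraries, a log2 fold change of 2.61 (SE 0.71). DESeq2 called both, msgn1 with an adjusted p of 0.00895 and cdx4 with 0.0370. WNT1, a ligand of the midbrain and dorsal neural tube, measured 6.34, 2.10 and 4.01 CPM in the morphant libraries, against 1.51, 0.634 and 0.961 CPM in the Wildtype libraries. Its groups did not overlap, and its log2 fold change was 2.13 (± 0.60 SE; adjusted p in edgeR, 0.393).

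BCL9L and GSK3B, 2 of the 12 with a negative fold change, were among those with the smallest unadjusted p, though neither was under 0.05. BCL9L, a co-activator of β-catenin, measured 19.1, 125 and 39.0 CPM in the morphant libraries, against 91.3, 48.7 and 152 CPM in the Wildtype libraries, a log2 fold change of -1.38 (SE 0.59). GSK3B, a kinase that marks β-catenin for destruction, measured 106, 198 and 114 CPM in the morphant libraries, against 193, 240 and 236 CPM in the Wildtype libraries, a log2 fold change of -0.81 (SE 0.36). In both, morphant replicates 1 and 3 were the low ones. Without morphant replicate 2 edgeR called BCL9L lower with an adjusted p of 0.0167 and GSK3B lower with an adjusted p of 0.0302; no other leave-out called either.

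Markers of several other cell types, like the Wnt members, were higher in morphant replicates 1 and 3 than in morphant replicate 2. As a median over a list of log2(CPM + 1) minus the Wildtype mean, Wnt targets stood at 1.44, -0.06 and 1.16 in morphant replicates 1 to 3, and Wnt ligands at 0.96, -0.07 and 1.43. Neural markers stood at 1.72, 0.31 and 1.55 on the same scale, neural crest markers at 1.69, -0.02 and 1.24, and skeletal muscle markers at 1.65, -0.64 and 2.25. Tailbud and presomitic mesoderm markers stood at 2.45, -0.09 and 0.66, epidermal markers at 1.76, -0.62 and 0.75, and endoderm and liver markers at 3.27, -0.09 and 0.22. For endoderm and liver markers, morphant replicate 3 was thus close to Wildtype replicate 2, at 0.21, unlike for the Wnt targets and ligands. In all 6 of these marker lists, as in the Wnt roles, morphant replicate 2 was the lowest morphant library.

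Each list was also followed by its summed level and its members' fold changes. The 9 neural genes, from 9 of 10 names, summed to 251 to 777 CPM in morphants and 150 to 233 CPM in Wildtype, and 9 of 9 had a positive fold change. The 4 neural crest genes, from 4 of 5 names, summed to 39.6 to 143 CPM in morphants and 32.4 to 39.0 CPM in Wildtype, with 4 of 4 positive. The 6 tailbud genes, from 6 of 6 names, summed to 8.51 to 77.1 CPM in morphants and 8.20 to 10.6 CPM in Wildtype, with 4 of the 4 tested positive; tbxta, tbx16, msgn1 and cdx4 belong both to it and to the other reported Wnt targets. The 9 skeletal muscle genes, from 7 of 10 names, summed to 818 to 2755 CPM in morphants and 1249 to 1672 CPM in Wildtype, with 8 of 9 positive. The 5 epidermal genes, from 5 of 6 names, summed to 879 to 11341 CPM in morphants and 1287 to 2042 CPM in Wildtype, with 4 of 5 positive. The 6 endoderm and liver genes, from 6 of 8 names, summed to 1870, 12.1 and 29.5 CPM in morphant replicates 1 to 3. In Wildtype they summed to 9.12 to 30.4 CPM, and 5 of the 5 tested had a positive fold change. No gene of these 6 lists was at 0 in any library.

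Other marker lists moved differently. The 9 cardiomyocyte genes, from 8 of 10 names, summed to 1585 to 1735 CPM in morphants and 2914 to 5887 CPM in Wildtype, with 1 of 9 positive. The 10 leukocyte genes, from 8 of 10 names, summed to 734 to 7686 CPM in morphants and 4678 to 8693 CPM in Wildtype, with 0 of the 9 tested positive; 1 of them, an MPEG1 gene, was at 0 in 4 libraries. Morphant replicate 2 had the highest leukocyte sum of the morphant libraries. The 3 erythroid genes, from 3 of 6 names, and the 4 endothelial genes, from 4 of 7 names, had medians of 0.09 and -0.13 for their log2 fold changes. The part of these cell types in the Wnt members' values was not tested.

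**Figure D5:**
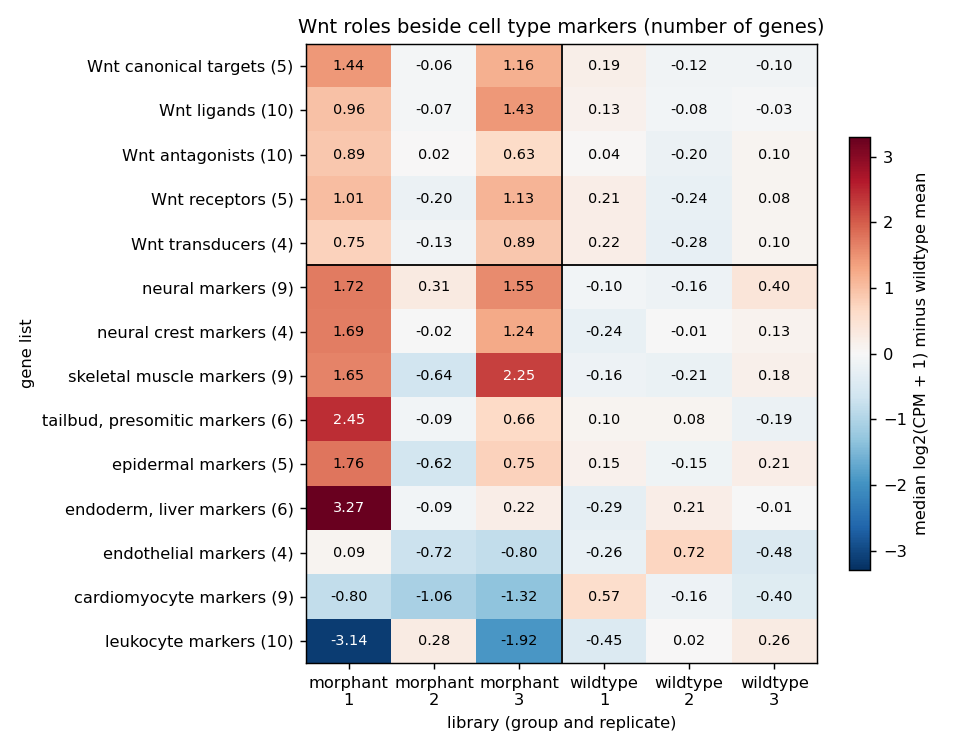
Median of log2(CPM + 1) minus the Wildtype mean for each Wnt role (top rows) and each cell type marker list except the erythroid one (lower rows). Columns are libraries, and the number of genes is in brackets. Wnt roles and the neural, neural crest, skeletal muscle and tailbud lists are positive in morphant replicates 1 and 3 and between -0.64 and 0.31 in morphant replicate 2; cardiomyocyte markers are below 0 in all 3 morphant libraries.

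The kits were also compared for the members. Of the 31 members tested, 28 had the same sign in both kits, 26 were positive in both, and 24 had the larger fold change in the mRNA-Seq libraries, where the morphant group is replicate 1 alone. No member had an edgeR p under 0.05 for the difference between kits, against 824 of the 18033 genes tested. Over all genes tested, 51.3% were positive within the mRNA-Seq libraries and 56.3% within the TruSeq libraries. The shares of all genes with the same sign in both kits, or larger in mRNA-Seq, are not given here. Within the TruSeq libraries the members' median log2 fold change was 0.53, against 0.10 over all genes tested. Within the mRNA-Seq libraries the members' median was 1.07, against 0.04 over all genes tested. Within a kit at least 1 group held a single library, so a kit's effect on the size of these differences and that of the single library cannot be told apart.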

How the data were processed

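RNA-seq libraries of sorted cells, 3 Gata4 morphant and 3 Wildtype, were grouped by their labels. Raw, whole-number counts for each Ensembl gene were deposited by the authors. RPKM values deposited by the authors were used only for levels between genes. The authors' base means (a mean signal of each group) and the p-values and adjusted p-values they deposited come from a test not named in the file headers. Per the submitters' processing notes the tools were CASAVA 1.7.0, BWA and DESeq, with the build Zv9. How genes were counted, with which annotation and whether by strand, is not given in the sources used here; reads of near copies and overlapping genes may have been split. No coordinates are given.

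Gene names came from a name table that matched 19189 of 27456 identifiers (69.9%), of which many are spelled as in human. Of the 40 member names, 21 matched as spelled and 10 without the final a or b. Members and lists were chosen with earlier results of these data known. Values in every library are given for LEF1, tmem88a, WNT11, the 4 members of each role with the smallest p and members whose groups did not overlap, besides some others added after their values were seen. Of the other pathway genes, 1 that the rule names is not reported here.

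The count test was that of edgeR 4.0.16 under R 4.3.3 (TMM scaling, filterByExpr, terms for kit and group, two-sided quasi-likelihood F test, Benjamini-Hochberg adjustment over 18033 genes, threshold 0.05). There were 3 residual degrees of freedom, and the biological coefficient of variation was 0.47. Fold changes use a prior count of 0.125, the SE is the fold change over the root of F, and CPM is scaled by TMM. Within-kit values come from 1 model of all 6 libraries with a mean per kit and group. Alternatives were DESeq2 1.42.0, limma-voom (limma 3.58.1), other scalings, no filter, no kit term and leaving out each library. The fitting steps were tested on simulated data with less spread between libraries than the real data. That test therefore does not show how many changes of a given size would be called here.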

Additional observations from a re-analysis of the deposited data

How the results depend on the processing

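As with all 6 libraries in edgeR, 0 members were called with either other scaling, with limma-voom, without the filter, without the kit term, within either kit, or without any single library other than morphant replicate 2. The number of members called was 1 with DESeq2 and ranged over 0 to 10 when each library was left out in turn. Over the whole table, edgeR called 44 genes without the filter and DESeq2 called 293. Either other scaling, limma-voom and the run without the kit term gave 0. Leaving out morphant replicate 2 gave 3745, and leaving out any other library gave 0. At an unadjusted p under 0.05 edgeR had 2261 genes. Other pathway genes called numbered 3 with DESeq2 and 0 to 26 over the libraries left out. The 26 came without morphant replicate 2, with 21 higher and 5 lower of 80 tested. In that run edgeR called 8.19% of all genes higher and 11.5% lower. Members with all morphant values above all Wildtype values numbered 6, and 6 to 29 over the libraries left out (29 without morphant replicate 2, 12 without Wildtype replicate 1; this count was added after seeing the data). Fewer libraries make such a separation easier by construction. The count stayed at 6 when morphant replicate 1 or morphant replicate 3 was dropped instead. The matching share of all genes is not given here for the Wildtype libraries left out. The cause of the differences between these counts was not tested.

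The members' median log2 fold change stayed positive in all 14 alternatives, between 0.47 (without morphant replicate 3) and 1.34 (library totals). By role, medians without morphant replicate 3 were 0.21 for transducers, 0.35 for receptors, 0.73 for ligands, 0.49 for antagonists and 0.94 for targets. Those with all libraries were 0.57, 0.72, 1.44, 0.93 and 1.34 in that order. The median of the antagonists was 0.34 within the TruSeq libraries. Without morphant replicate 1 the medians were 0.28 for antagonists, 0.42 for receptors, 0.35 for transducers, 1.04 for targets and 1.65 for ligands. Of 392 values of the 28 tested genes that the naming rule takes, 375 kept their side of the threshold, 17 passed it (14 without morphant replicate 2 and 3 with DESeq2) and 0 reversed. As edgeR called 0 genes with all 6 libraries, keeping the side meant only not being called. A call could not be lost, so these counts do not measure how stable a call is. Among the other members tested, the sign turned for NKD2, WNT2B, SFRP5, tmem88b and LRP5 in at least 1 alternative, such as NKD2 at -0.50, WNT2B at -0.22 and SFRP5 at -0.11 within the TruSeq libraries, tmem88b at 0.23 with library totals and LRP5 at -0.24 without morphant replicate 3. No paired analysis was possible because the labels give no replicate numbers, and the numbers used here follow the order of deposit. Counts of 0 to 81 limit what can be said of the 3 members that did not pass the filter.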
